A study of Homo sapiens with 29 samples.

Results

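Long non-coding RNA (lncRNA) genes whose starts stand apart from protein-coding starts were examined for occupancy by the INO80 chromatin remodelling complex and the transcription factor YY1 in a pair of liver cancer cell lines. The genes were those of type lncRNA in GENCODE on chromosomes 1 to 22 for which every transcript start lay more than 5 kb from every protein-coding start. The rule took 12866 of the 18229 lncRNA genes on these chromosomes, and the other 5363 had a start within 5 kb of a coding start. The annotation holds 61221 genes of any type on the same chromosomes, 18893 of them protein-coding. A gene was called occupied when a peak lay within 1 kb of any of its transcript starts. The rule used annotation alone and no measured value, although it was chosen with earlier results of these data known.

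Chromatin immunoprecipitation and sequencing (ChIP-seq) was done in HepG2 and Huh7 cells, which are established human liver cancer lines. No treatment is given for the cells behind these lists, which give INO80, MCRS1, RUVBL2 and YY1 in both lines and RUVBL1 in HepG2. The labels list 3 INO80 libraries in HepG2 and 2 for every other factor and line, while YY1 in HepG2 was taken from public ENCODE reads and has no sample record. Each line stands for itself as a model, libraries are not said to come from separate cultures, and other libraries of the series (a histone mark after drug or solvent, and input) are not used here.

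The INO80 complex uses ATP to slide nucleosomes and is found at the starts of many active genes. INO80 is its motor subunit, MCRS1 is a subunit of the complex, and RUVBL1 and RUVBL2 are ATPases that also serve other chromatin complexes. YY1 binds DNA by sequence, at sites built around ATGGC, and can be found with the complex. Many lncRNA genes share a promoter region with a coding gene. Isolated ones do not by the rule used here, although a wide peak at their start can still reach a coding start farther away.

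The 9 deposited lists hold from 3322 peaks (RUVBL2 in Huh7) to 39293 peaks (YY1 in HepG2). They give positions on hg19 with no height, so depth is unknown for every peak, and its width is the only measure of size. Each factor has 1 list per line and no value below has a replicate error or a test between samples. The bracketed ranges are 95% Wilson intervals, which cover only the number of genes counted, and neighbouring genes that share a peak are not independent. In a cell population, a peak does not tell how many of the cells carry the factor.

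The sequences about 6 starts are picked examples and do not stand for the occupied isolated genes as a whole. Each is 300 bases of GRCh37, the sequence of hg19, from 250 bases before to 50 after a transcript start, on the strand of the gene. The start shown is the one nearest the centre of the widest INO80 peak in HepG2, or where there is none, in Huh7. Capitals mark ATGGCG, the core of the YY1 site, its longer form AANATGGC, and GGTTCNANNCC, the B box inside transfer RNA (tRNA) genes, each searched on both strands. The first 5 were occupied in all 9 lists at the start shown and the last 1 by INO80 alone in both lines. NEAT1 (chr11:65190760-65191059, plus strand) is the RNA that builds nuclear paraspeckles. NORAD (chr20:34638891-34639190, minus strand) binds Pumilio proteins in the cytoplasm. SNHG5 (chr6:86387874-86388173, minus strand) carries small nucleolar RNAs (snoRNAs) in its introns, and MIRLET7IHG (chr12:62996282-62996581, plus strand) carries the microRNA let-7i. LINC02739 (chr11:59333697-59333996, minus strand) lies next to a tRNA gene, and LINC02939 (chr22:46465722-46466021, minus strand) is described further on.
NEAT1: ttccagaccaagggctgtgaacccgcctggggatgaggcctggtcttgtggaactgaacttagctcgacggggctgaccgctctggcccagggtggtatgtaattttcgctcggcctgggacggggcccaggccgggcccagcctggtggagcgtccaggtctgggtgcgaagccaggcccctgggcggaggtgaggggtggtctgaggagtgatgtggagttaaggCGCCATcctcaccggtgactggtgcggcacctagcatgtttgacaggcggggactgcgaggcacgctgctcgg
NORAD: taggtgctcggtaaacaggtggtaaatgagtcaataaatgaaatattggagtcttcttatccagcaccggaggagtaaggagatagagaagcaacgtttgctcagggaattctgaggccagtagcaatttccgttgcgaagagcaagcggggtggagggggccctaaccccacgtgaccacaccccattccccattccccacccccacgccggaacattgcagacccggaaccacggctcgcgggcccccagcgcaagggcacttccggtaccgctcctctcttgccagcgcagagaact
SNHG5: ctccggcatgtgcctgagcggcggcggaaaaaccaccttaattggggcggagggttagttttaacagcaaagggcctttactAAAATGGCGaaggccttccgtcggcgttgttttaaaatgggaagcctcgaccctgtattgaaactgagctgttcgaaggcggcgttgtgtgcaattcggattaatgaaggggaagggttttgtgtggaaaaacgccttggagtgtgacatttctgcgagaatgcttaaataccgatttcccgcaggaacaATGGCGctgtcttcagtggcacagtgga
MIRLET7IHG: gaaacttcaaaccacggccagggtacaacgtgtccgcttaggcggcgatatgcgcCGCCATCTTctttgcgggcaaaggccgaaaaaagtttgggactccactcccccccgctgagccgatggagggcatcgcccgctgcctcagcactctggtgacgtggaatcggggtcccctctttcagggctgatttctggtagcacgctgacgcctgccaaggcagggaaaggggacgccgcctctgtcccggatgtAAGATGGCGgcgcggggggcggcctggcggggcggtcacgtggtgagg
LINC02739: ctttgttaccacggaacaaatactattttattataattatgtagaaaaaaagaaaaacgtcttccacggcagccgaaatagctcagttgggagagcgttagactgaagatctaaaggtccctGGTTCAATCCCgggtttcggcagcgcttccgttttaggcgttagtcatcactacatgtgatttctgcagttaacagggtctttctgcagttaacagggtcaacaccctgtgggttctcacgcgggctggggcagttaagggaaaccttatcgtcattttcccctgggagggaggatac
LINC02939: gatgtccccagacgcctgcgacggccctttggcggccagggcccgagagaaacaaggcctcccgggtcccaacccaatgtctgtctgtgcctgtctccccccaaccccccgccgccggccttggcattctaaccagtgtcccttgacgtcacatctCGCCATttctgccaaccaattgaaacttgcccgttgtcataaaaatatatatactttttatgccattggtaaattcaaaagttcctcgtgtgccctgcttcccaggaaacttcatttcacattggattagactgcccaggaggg
The SNHG5 and MIRLET7IHG windows hold ATGGCG 2 times each, and the NEAT1 and LINC02939 windows hold it 1 time each. NORAD and LINC02739 have no match of it in these letters, and LINC02739 has 1 match of the B box, 128 bases before its start. G and C made up 64.7% of the MIRLET7IHG window and 46.3% of the LINC02739 window. Matches of ATGGCG were less frequent over all isolated genes with a peak at the outermost start. In HepG2 they were in 12.8% of the windows with INO80 and 13.4% of those with YY1.

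Most isolated lncRNA genes had no peak. Of the 12866 genes, 10705 (83.2%) were in none of the 9 lists and 2161 (16.8%) were in at least 1, where 36.9% of all annotated genes were. Peaks of all 9 lists met at 66 genes (0.513%), against 2.65% of all annotated genes. In between, 682 genes were in 1 list, 355 in 2, 266 in 3, 234 in 4, 179 in 5, 172 in 6, 113 in 7 and 94 in 8. The 2161 genes lie at 1914 separate loci, of which 1689 hold a single such gene and the fullest holds 4.

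YY1 was the factor found most often at these starts, in both lines. In HepG2 it was at 1683 genes (13.1%, 12.5 to 13.7), where 31.0% of all annotated genes had it. INO80 was at 1157 genes (8.99%, 8.51 to 9.50), against 30.2% of all annotated genes. MCRS1 was at 1098 genes (8.53%), against 27.8%. RUVBL2 was at 578 genes (4.49%) against 18.6%, and RUVBL1 at 296 genes (2.30%) against 8.35%. The order YY1, INO80, MCRS1, RUVBL2, RUVBL1 is also the order of the number of peaks in the HepG2 lists, so the counts cannot rank the factors by affinity for these genes.

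The Huh7 lists were shorter and gave lower shares. YY1 was at 973 genes (7.56%, 7.12 to 8.03), where 24.7% of all annotated genes had it, and INO80 at 858 genes (6.67%, 6.25 to 7.11), against 22.7%. MCRS1 was at 374 genes (2.91%), against 10.5% of all annotated genes. RUVBL2 was at 173 genes (1.34%), against 6.18%. In all 9 lists the share of isolated lncRNA genes was under the background of all genes.

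Protein-coding genes carried the same factors several times as often. INO80 in HepG2 was at 66.3% of protein-coding genes and at 59.5% of the lncRNA genes within 5 kb of a coding start. The coding share was 4.93 times that of isolated lncRNA genes for YY1 in HepG2, the lowest ratio of the 9 lists, and 10.1 times for RUVBL2 in Huh7, the highest. Isolated starts were nevertheless more often occupied than the autosomes at large. INO80 peaks in HepG2 came within 1 kb of 2.43% of autosomal bases, while 8.11% of the outermost starts of isolated lncRNA genes, their 5′ ends, had one. That is a ratio of 3.33, and the other lists ranged from 3.25 for MCRS1 in HepG2 to 4.95 for MCRS1 in Huh7.

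**Figure D1:**
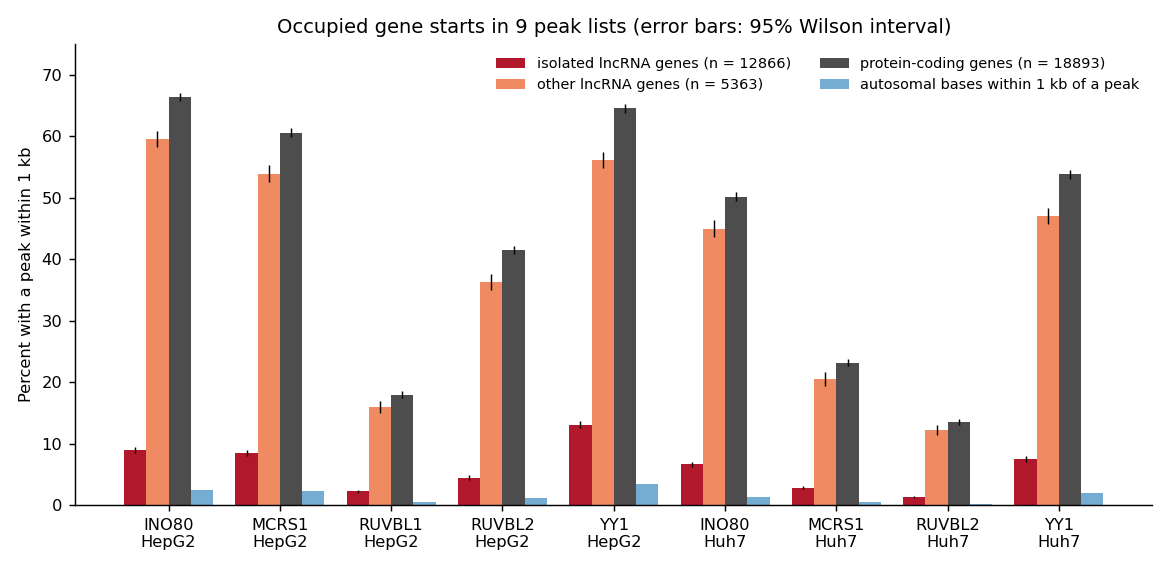
Percent of genes with a peak within 1 kb of a transcript start in each of the 9 peak lists (horizontal axis), for isolated lncRNA genes, the other lncRNA genes and protein-coding genes, with the percent of autosomal bases within 1 kb of a peak. Error bars are 95% Wilson intervals over genes. The isolated genes stand between the genome level and the other gene classes in every list, for INO80 in HepG2 at 8.99% against 66.3% of coding genes. Gene bars count a peak near any start of a gene, while the genome level counts single positions. At the outermost start alone, the isolated share for INO80 in HepG2 was 8.11%, against 2.43% of bases.

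Peak centres at isolated lncRNA genes were most frequent close to the start. Within 5 kb of the outermost start, the 250 bp just downstream held more INO80 peak centres than any other bin in HepG2, at 1.87% of genes, whereas bins 4 to 5 kb away held 0.124% to 0.288%. In Huh7 the same bin held INO80 centres at 1.73% of genes and YY1 centres at 1.98%. YY1 in HepG2 was as frequent just upstream, at 3.03% of genes, as just downstream, at 2.88%. At coding genes the bin just downstream held INO80 centres at 17.4% of genes in HepG2, and the bins 4 to 5 kb away held 0.529% to 0.656%. YY1 in HepG2 leaned downstream there, at 21.1% of coding genes against 15.2% just upstream.

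**Figure D2:**
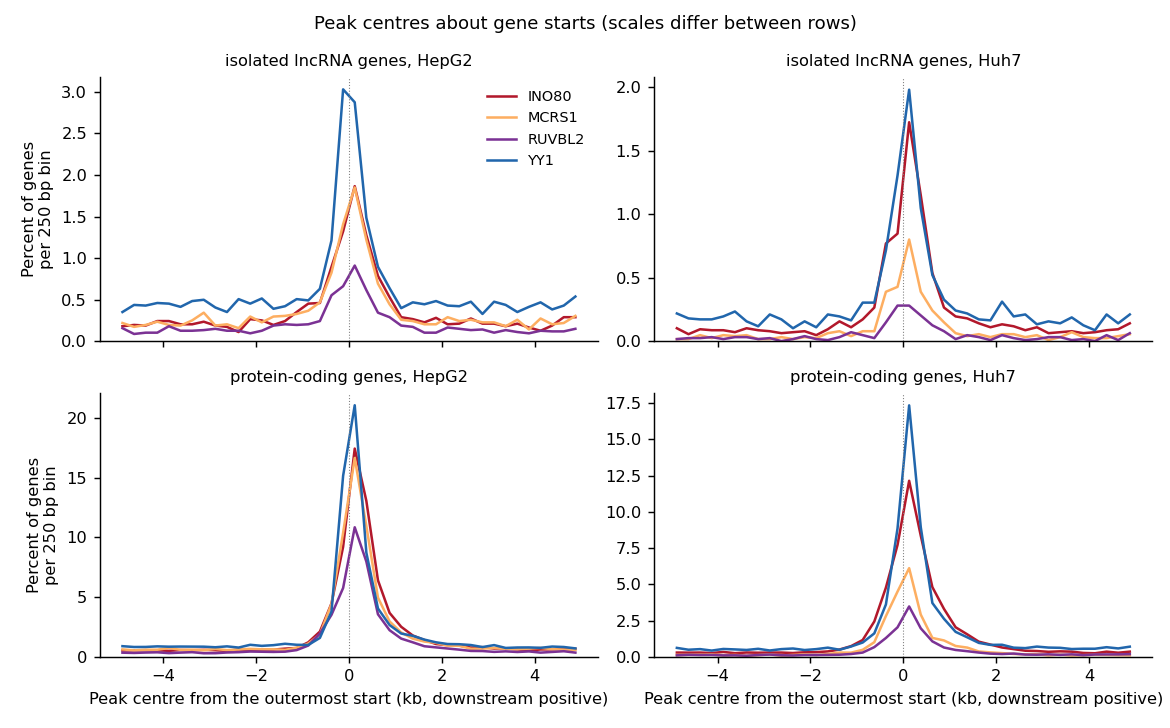
Percent of genes with a peak centre in each 250 bp bin from 5 kb before to 5 kb after the outermost start, for 4 factors in each line. The upper panels show isolated lncRNA genes and the lower panels protein-coding genes, on different vertical scales. Centres gather at the start in both classes, reaching 1.87% of isolated lncRNA genes and 17.4% of coding genes for INO80 in HepG2.

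Peaks of INO80 and YY1 were narrower than at coding genes, and covered the start less often in 3 of the 4 lists. The widest INO80 peak within 1 kb had a median width of 799 bp (quartiles 364 and 1339 bp) at the isolated genes and 1136 bp at coding genes. For YY1 in HepG2 the medians were 433 bp and 926 bp. In Huh7 the INO80 medians were 527 bp and 646 bp. RUVBL2 in Huh7 had medians of 284 bp and 277 bp, and RUVBL1 in HepG2 of 330 bp and 317 bp. Among genes with INO80 within 1 kb of the outermost start in HepG2, the peak covered that start at 56.5% of isolated lncRNA genes (53.5 to 59.5) and at 72.3% of coding genes (71.4 to 73.1). For YY1 the shares were 58.1% and 83.6% in HepG2, and 52.2% (48.9 to 55.5) and 60.5% (59.4 to 61.4) in Huh7. The INO80 shares in Huh7 were close, at 46.8% (43.3 to 50.3) and 49.8% (48.7 to 50.8).

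INO80 shared most of its isolated lncRNA genes with YY1. Of the 1157 genes with INO80 in HepG2, 977 (84.4%, 82.2 to 86.4) also had YY1, compared with 89.4% of INO80 coding genes. At 919 of those 977 genes (94.1%) the widest INO80 peak shared at least 1 base with a YY1 peak. MCRS1 was at 77.6% of the INO80 genes, RUVBL2 at 46.2% and RUVBL1 at 24.3%, with 86.8%, 61.9% and 26.9% for coding genes. In Huh7, 655 of 858 INO80 genes (76.3%, 73.4 to 79.1) had YY1, 40.2% had MCRS1 and 18.3% had RUVBL2. The shares for coding genes with INO80 in Huh7 were 85.0%, 43.5% and 25.5%. The shared ATPases were seldom without INO80. In HepG2, 94.9% of the genes with RUVBL1 and 92.4% of those with RUVBL2 also had INO80. For coding genes these shares were higher, at 99.1% and 98.9%.

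Read from YY1, the picture differed more between gene classes. Of the 1683 isolated lncRNA genes with YY1 in HepG2, 58.1% (55.7 to 60.4) had INO80, against 91.8% of coding genes with YY1. No subunit was found in HepG2 at 561 of them (33.3%), whereas 497 coding genes with YY1 (4.08%) had none. In Huh7 the gap was narrower, with INO80 at 67.3% of the isolated genes with YY1 and at 79.3% of the coding genes. The YY1 list of HepG2 comes from public reads and is the longest of the 9, and its part in this gap was not tested.

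Grouped by which factors met at a gene, YY1 alone was almost as common as the full set in HepG2. Of 1945 isolated lncRNA genes with any HepG2 peak, 572 (29.4%, 27.4 to 31.5) had INO80, MCRS1, YY1 and RUVBL1 or RUVBL2 together, and 561 (28.8%) had YY1 alone. For coding genes with any HepG2 peak the shares were 59.7% and 3.65%. A further 287 isolated genes had INO80, MCRS1 and YY1 without RUVBL1 or RUVBL2, and 134 had INO80 alone. In Huh7, 1189 isolated genes had a peak. INO80 with YY1 came first there, at 298 genes (25.1%), followed by YY1 alone at 286 (24.1%), INO80 with MCRS1 and YY1 at 202, INO80 alone at 186 and the full set at 126.

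**Figure D3:**
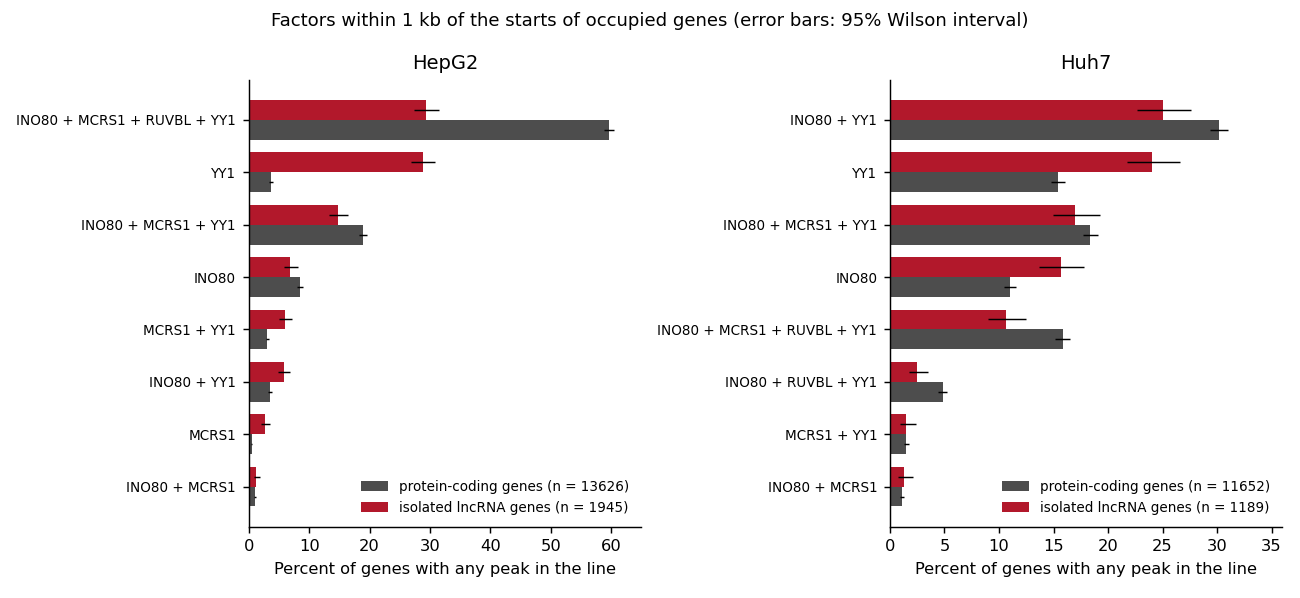
Share of genes with each combination of factors, in percent of the genes with any peak in HepG2 (left) or Huh7 (right), for isolated lncRNA genes and protein-coding genes, with 95% Wilson intervals as error bars. RUVBL stands for RUVBL1 or RUVBL2 in HepG2 and RUVBL2 in Huh7, and the 8 combinations most frequent at isolated genes are drawn. YY1 alone takes 28.8% of isolated genes and 3.65% of coding genes in HepG2.

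The lines overlapped in part. INO80 was at 615 isolated lncRNA genes in both lines, at 542 in HepG2 only and at 243 in Huh7 only, while 21.0% of all annotated genes had INO80 in both lines. The 615 genes are 53.2% of the HepG2 genes (50.3 to 56.0) and 71.7% of the Huh7 genes (68.6 to 74.6). Coding genes with INO80 overlapped further, at 72.0% and 95.2%. Of the 18893 coding genes, 3511 had INO80 in HepG2 only and 457 in Huh7 only. YY1 was at 756 isolated genes in both lines, which are 44.9% of the HepG2 and 77.7% of the Huh7 genes. For coding genes with YY1 these shares were 78.7% and 94.4%. MCRS1 overlapped at 293 isolated genes, 26.7% of the HepG2 and 78.3% of the Huh7 genes. For coding genes with MCRS1 they were 37.1% and 97.1%. The lists of the lines differ in length, and a gene present in 1 line only may differ in depth as well as in occupancy, which cannot be told apart here.

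The genes in all 9 lists include some of the most abundant nuclear RNAs. Those 66 genes lie at 54 loci, 34 have a gene symbol, and 47 have a CpG-rich window at the outermost start, meaning 300 bases with at least 50% G and C and an observed to expected CpG ratio of at least 0.6. NEAT1 (chromosome 11, 65190245 to 65213011) had the widest INO80 peak of the named genes in this set. In HepG2 its peaks were 12595 bp for INO80, 10414 bp for MCRS1, 12162 bp for RUVBL1, 7174 bp for RUVBL2 and 2167 bp for YY1. In Huh7 they were 6572 bp, 5056 bp and 5699 bp for INO80, MCRS1 and RUVBL2 and 7378 bp for YY1. Every subunit peak was wider than the YY1 peak in HepG2, whereas in Huh7 the YY1 peak was the widest of the 4.

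MALAT1 (chromosome 11, 65265111 to 65275544), the nuclear speckle RNA encoded next to NEAT1, had INO80 peaks of 10583 bp in HepG2 and 10026 bp in Huh7. Its MCRS1 peaks were 8814 bp and 7039 bp, its RUVBL2 peaks 4923 bp and 1909 bp, its YY1 peaks 2177 bp and 4490 bp, and its RUVBL1 peak 3421 bp. TALAM1, the transcript on the opposite strand of MALAT1, shared its INO80 peaks in both lines and its RUVBL1 peak. The assay has no strand, so the peaks cannot be divided between MALAT1 and TALAM1. NORAD (chromosome 20, 34633540 to 34638940) had peaks of 540 bp to 1844 bp in the 9 lists.

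LINC00324 (chromosome 17, 8123942 to 8127361) had peaks of similar width in all lists, from 2218 bp for YY1 in Huh7 to 3978 bp for MCRS1 in HepG2. MRPL23-AS1 (chromosome 11, 2004467 to 2011223), which lies beside the imprinted H19 gene, was wide in HepG2, with 4202 bp for INO80 and 4514 bp for RUVBL2, and narrow in Huh7, with 643 bp and 191 bp. Its neighbour LINC01219 had the same 5 HepG2 peaks within 1 kb and no Huh7 peak. The widest peaks of a gene with several starts can lie at different starts. At LINC02739 the widest INO80 peak in HepG2 was 646 bp (59333330 to 59333975) and that in Huh7 was 5618 bp at another start (59322905 to 59328522), so these widths do not compare the lines at 1 promoter. LINC01962 and TRIM7-AS2 start back to back on chromosome 5 and share an INO80 peak of 5379 bp in HepG2.

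**Figure D4:**
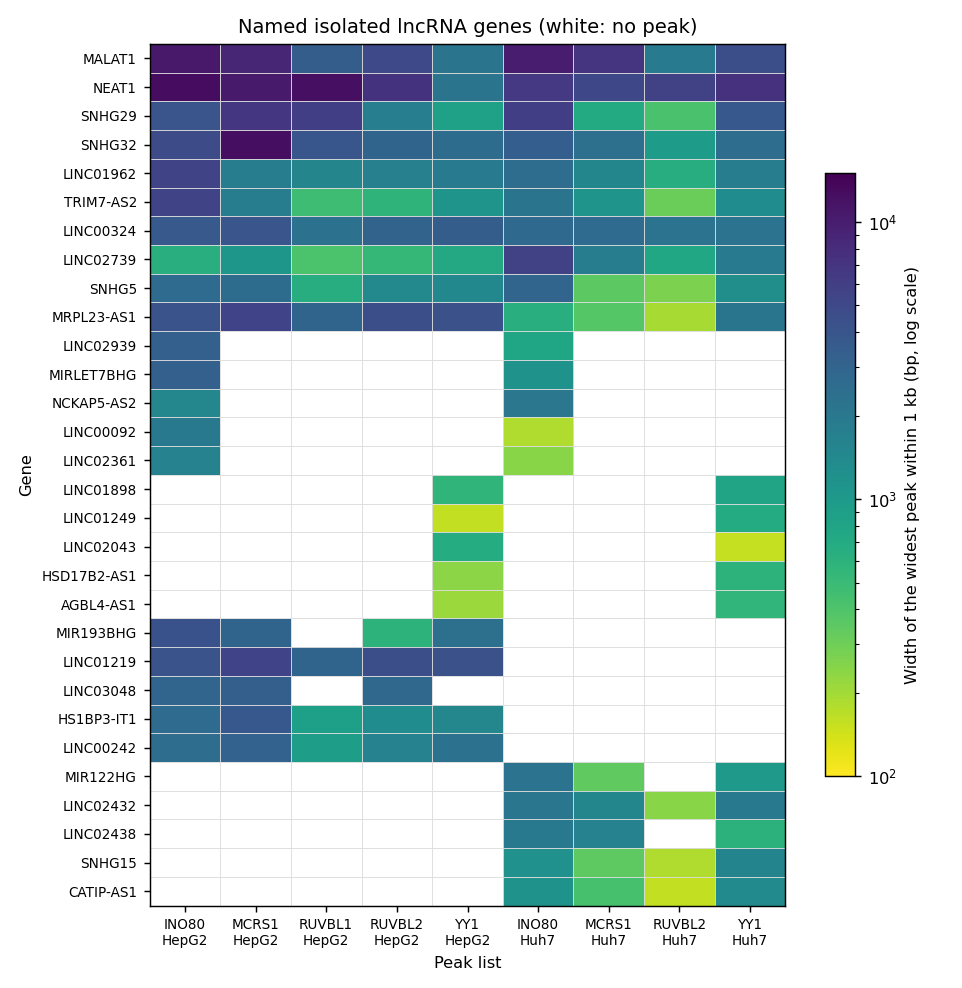
Width of the widest peak within 1 kb of a start (colour, log scale, in bp) for 30 named isolated lncRNA genes (rows) in the 9 peak lists (columns), with white where there was no peak. From the top are genes in all 9 lists, with INO80 and no YY1, with YY1 and no subunit, in HepG2 only for INO80, and in Huh7 only for INO80. Among the genes drawn, the NEAT1 and MALAT1 rows hold the widest INO80 peaks, at 12595 bp and 10583 bp in HepG2. The widest INO80 peak over all isolated genes in HepG2 was 14721 bp.

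INO80 stood without YY1 at a small set of genes. Of the 615 genes with INO80 in both lines, 44 (7.15%) had YY1 in neither, as had 504 of 9021 coding genes (5.59%). LINC02939 (chromosome 22, 46463236 to 46465771) had an INO80 peak of 3214 bp in HepG2 and of 785 bp in Huh7 and no peak of another factor. MIRLET7BHG, the host of let-7b microRNAs, lies beside it on the opposite strand, shares the HepG2 peak and had an INO80 peak of 1153 bp in Huh7. NCKAP5-AS2 had INO80 peaks of 1478 bp and 2064 bp, LINC00092 of 1987 bp and 182 bp, and LINC02361 of 1618 bp and 245 bp, with no MCRS1, RUVBL1 or RUVBL2 peak at these genes in either line. The ATGGCG of the LINC02939 window printed above begins 94 bases before the start.

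The reverse set, with YY1 in both lines and none of the 4 subunits in either, held 45 isolated genes (5.95% of those with YY1 in both lines) and 50 coding genes (0.521%). LINC01898 (chromosome 18, 73407999 to 73424806) had YY1 peaks of 567 bp in HepG2 and 810 bp in Huh7. Its window about the start nearest the HepG2 YY1 peak (chr18:73424313-73424612, minus strand) is shown because a short unit recurs along it, with capitals as before.
LINC01898: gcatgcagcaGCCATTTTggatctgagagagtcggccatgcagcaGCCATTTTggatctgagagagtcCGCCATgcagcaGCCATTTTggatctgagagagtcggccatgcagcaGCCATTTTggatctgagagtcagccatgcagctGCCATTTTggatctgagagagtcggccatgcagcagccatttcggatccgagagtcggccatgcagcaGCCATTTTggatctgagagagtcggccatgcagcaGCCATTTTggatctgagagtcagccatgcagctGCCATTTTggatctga
The window holds AANATGGC 8 times and ATGGCG 1 time. Peaks of this set were narrow. LINC01249 had YY1 peaks of 157 bp and 694 bp, LINC02043 of 678 bp and 154 bp, HSD17B2-AS1 of 239 bp and 584 bp, and AGBL4-AS1 of 213 bp and 558 bp in HepG2 and Huh7.

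Some genes carried INO80 in 1 line only. MIR122HG (chromosome 18, 56113020 to 56120998) is the host of miR-122, the main microRNA of hepatocytes. It had peaks of 2233 bp for INO80, 343 bp for MCRS1 and 1001 bp for YY1 in Huh7 and none in HepG2. Its start (chr18:56113245-56113544, plus strand) is shown for its ATGGCG, which begins 17 bases after the start, read on the other strand.
MIR122HG: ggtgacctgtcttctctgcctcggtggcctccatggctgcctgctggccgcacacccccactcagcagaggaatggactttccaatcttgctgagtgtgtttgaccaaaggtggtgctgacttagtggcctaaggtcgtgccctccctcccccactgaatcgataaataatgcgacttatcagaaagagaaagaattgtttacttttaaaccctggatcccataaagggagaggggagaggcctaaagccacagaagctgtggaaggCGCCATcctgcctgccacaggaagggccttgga
SNHG15, a snoRNA host, had Huh7 peaks of 1197 bp for INO80, 349 bp for MCRS1, 181 bp for RUVBL2 and 1566 bp for YY1, and none in HepG2. LINC02432 and CATIP-AS1 likewise had all 4 Huh7 factors, with INO80 peaks of 2085 bp and 1149 bp, and LINC02438 had 3 of them. MIR193BHG (chromosome 16, 14395246 to 14424924), the host of miR-193b, had the opposite pattern. Its HepG2 peaks were 4276 bp for INO80, 2975 bp for MCRS1, 590 bp for RUVBL2 and 2351 bp for YY1, and Huh7 had none. LINC00242 and HS1BP3-IT1 had all 5 HepG2 factors, with INO80 peaks of 2498 bp and 2577 bp. LINC03048 had an INO80 peak of 2930 bp with MCRS1 and RUVBL2 and without YY1.

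The snoRNA host genes on the list, nearly all of them named SNHG, were each in at least 1 peak list, 19 of 19. These genes release snoRNAs, which guide the modification of ribosomal RNA, from their introns. The count does not carry over to every isolated gene that holds an annotated snoRNA gene. Of those 65 genes, 20 (30.8%, 20.9 to 42.8) had INO80 in HepG2, 25 (38.5%) had YY1 and 14 (21.5%) had RUVBL2, and INO80 in Huh7 was at 20 too. Among the 19 on the list, INO80 was at 17 in HepG2 and at 16 in Huh7, and YY1 at 17 and 18. RUVBL2 was at 15 in HepG2 and 10 in Huh7, and RUVBL1 at 7. Of all annotated genes, 36.9% were in some list and 2.65% in all 9. INO80 was at 30.2% of all annotated genes in HepG2, near the 30.8% of the 65 genes, and at 22.7% in Huh7. YY1 was at 31.0% of them in HepG2 and 24.7% in Huh7. RUVBL2 was at 18.6% and 6.18%, and RUVBL1 in HepG2 at 8.35%. Of all isolated genes, 8.99% had INO80 in HepG2. SNHG5, SNHG17, SNHG25, SNHG29 and SNHG32 were in all 9 lists. At SNHG32 (chromosome 6, 31802385 to 31807543) the MCRS1 peak in HepG2 was 12475 bp, from 31794530 to 31807004. It ran upstream over the start of the heat shock gene HSPA1B, which lies 6870 bp from the nearest SNHG32 start. SNHG7 had the widest YY1 peak of the isolated genes in Huh7, at 8774 bp. SNHG27 had no INO80 in either line, and SNHG28 had INO80 peaks of 1208 bp and 631 bp in the 2 lines without YY1.

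MicroRNA host genes were mixed. Of 61 such genes, 30 (49.2%) were in some list and 31 in none, where 36.9% of all annotated genes were in some list. INO80 was at 21 (34.4%) in HepG2 and 19 (31.1%) in Huh7, against 30.2% and 22.7% of all annotated genes. The HepG2 share is thus near that of all genes, and above the 8.99% of all isolated genes. YY1 was found at 24 (39.3%) and 21 (34.4%) of the 61, against 31.0% and 24.7%. MIRLET7IHG and MIR9-1HG were in all 9 lists. MIRLET7IHG had peaks of 1633 bp to 2084 bp in 8 lists and of 697 bp for RUVBL1. MIR17HG, the host of a growth-promoting microRNA cluster, had INO80 peaks of 2282 bp in HepG2 and 158 bp in Huh7. MIR34AHG, a target of p53, had INO80 peaks of 1814 bp in HepG2 and 939 bp in Huh7, at different starts. MIR210HG, induced by low oxygen, and MIR29B2CHG had INO80 in HepG2 only, at 1013 bp and 449 bp. Hosts of microRNAs known from other tissues fell on both sides. MIR155HG of blood cells and MIR1-1HG of muscle had no peak, while MIR9-1HG, whose microRNA is known from neurons, had INO80 peaks of 1014 bp in HepG2 and 644 bp in Huh7.

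Widely studied lncRNA genes with roles in the nucleus and in growth were in some list in 15 of 23 cases. All 15 had INO80 and YY1 in HepG2, and 13 had INO80 and 12 had YY1 in Huh7. The share in some list was 65.2%, against 36.9% of all annotated genes. Of all annotated genes, INO80 was at 30.2% in HepG2 and 22.7% in Huh7, and YY1 at 31.0% and 24.7%. MALAT1, NEAT1 and NORAD were in all 9 lists. KCNQ1OT1 (chromosome 11, 2618538 to 2721233), the imprinted antisense RNA of KCNQ1, had INO80 peaks of 3452 bp in HepG2 and 871 bp in Huh7. DANCR had INO80 peaks of 788 bp and 1902 bp. H19, LINC-ROR, LINC00520, LINC00958, LUCAT1, MEG3, MIAT and SAMMSON were in none of the lists.

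Of 28 isolated genes known from liver or liver cancer, which include 4 of the widely studied genes, 11 were in some list and 17 in none. That share of 39.3% is near the 36.9% of all annotated genes, and above the 16.8% of all isolated genes. INO80 was at 4 in HepG2 (14.3%, where 30.2% of all annotated genes had it) and 6 in Huh7 (21.4%, against 22.7%). The YY1 lists had 8 (28.6%) and 6 (21.4%) of them, near the 31.0% and 24.7% of all annotated genes. The RUVBL2 list of Huh7 had 0 of them, and it had only 6.18% of all annotated and 1.34% of isolated genes. HNF4A-AS1 (chromosome 20, 43001386 to 43024346), inside the gene of the hepatocyte receptor HNF4A on the opposite strand, had INO80 peaks of 2337 bp in HepG2 and 150 bp in Huh7. LINC00261 (chromosome 20, 22528301 to 22559280), beside the liver factor gene FOXA2, had INO80 peaks of 3770 bp and 1685 bp. LINC00511 had INO80 peaks of 2281 bp and 1507 bp. HEIH had INO80 (749 bp) and YY1 (780 bp) in Huh7 only. LINC01554 had INO80 (298 bp), MCRS1 (174 bp) and YY1 (194 bp) in HepG2 only. UCA1, LINC01093 and LINC01018 had no peak. Of 25 isolated genes known from neural, blood, germ or other cells, 4 were in some list, a share near the 16.8% of all isolated genes, and only LINC01122 among them had INO80, with peaks of 2423 bp (HepG2) and 769 bp (Huh7). The lists hold no measure of RNA, so whether the genes were expressed was not measured.

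Across all members, kinds of gene had the same order for INO80 in both lines, which for YY1 did not hold for antisense and LINC genes. YY1 was at 16.6% of antisense and 15.7% of LINC genes in HepG2, and at 8.85% and 9.35% in Huh7. Genes named as microRNA or snoRNA hosts had INO80 in HepG2 at 36 of 78 (46.2%, 35.5 to 57.1) and in Huh7 at 34 (43.6%). LINC genes had it at 218 of 2064 (10.6%, 9.31 to 12.0) in HepG2 and 9.50% in Huh7. Genes with another symbol had it at 152 of 518 (29.3%) in HepG2, antisense genes at 64 of 712 (8.99%), and genes named by an accession alone at 684 of 9380 (7.29%, 6.78 to 7.84) in HepG2. Intronic and overlapping transcripts (IT and OT symbols) had it at 3 of 110 (2.73%), and the 4 divergent transcripts (DT symbols) had none. Genes outside coding genes carried INO80 in HepG2 more often (11.1%, 10.5 to 11.8) than those inside a coding gene on the opposite strand (3.92%, 3.25 to 4.72) or the same strand (4.22%, 3.19 to 5.57).

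A gene with many starts has more chances of a peak within 1 kb of one of them. INO80 in HepG2 was at 5.93% of the 8824 genes with 1 start and at 25.3% of the 1073 genes with over 5. At the outermost start alone the second share was 18.9% (16.7 to 21.4), so the order held with 1 position per gene. Genes with another gene start of any type within 5 kb had INO80 in HepG2 in 745 of 4656 cases, and the 8210 genes without one in 412 cases (5.02%, 4.57 to 5.51). The 889 genes whose start region has a near copy elsewhere in the genome had INO80 in HepG2 at 23.4% (20.7 to 26.3), against 7.92% of the others, and 13 of the 66 genes in all 9 lists are among them. Reads from such regions can be placed at either copy, so their peaks are uncertain. By chromosome, INO80 in HepG2 was at 2.76% of isolated genes on chromosome 18, the lowest, and at 14.4% on chromosome 20, the highest. HepG2 carries extra copies of chromosome 20, and their part in this share was not tested.

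Starts with a CpG-rich window were occupied more often, among isolated lncRNA genes as among coding genes. Of the isolated genes, 1198 (9.31%) had a CpG-rich window at the outermost start, compared with 55.6% of coding genes. INO80 in HepG2 lay within 1 kb of that start at 45.3% of the CpG-rich isolated genes (42.5 to 48.2) and at 85.7% of the CpG-rich coding genes (85.0 to 86.4). With any other window the shares were 4.29% (3.94 to 4.68) and 29.2% (28.2 to 30.2). For YY1 in HepG2 they were 47.6% and 81.4% with a CpG-rich window and 7.87% and 31.0% without. In Huh7 INO80 was at 34.1% and 64.4% with, and at 3.08% and 20.3% without. Median G and C was 60.7% in the windows of isolated genes with INO80 in HepG2, 54.0% where YY1 stood with no subunit, and 45.0% where no list had a peak.

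The core of the YY1 site was found more often at occupied starts. ATGGCG lay in the 300-base window of 8.74% of all annotated genes, 11.8% of coding genes and 4.54% of isolated genes with no peak. The share was 13.4% for isolated genes with YY1 in HepG2, 18.2% with YY1 in Huh7 and 18.3% with INO80 in Huh7. Among the genes with YY1 and no subunit in HepG2 it was 14.9%. The longer AANATGGC, which overlaps the core by ATGGC, gave smaller differences, which varied between lists. It was in 6.07% of the windows of isolated genes with no peak and 6.99% of those of all annotated genes. With a peak the share went from 5.08% (INO80 in HepG2) over 6.32% and 7.62% (YY1 in HepG2 and Huh7) to 9.64% (MCRS1 in Huh7), and it was 11.1% of the 63 genes with all 9 lists at the outermost start. Coding genes had it at 6.72%, and at 10.3% with YY1 in Huh7. TATAAA, the TATA box, lay in 20.7% of windows with no peak, 8.24% of those with INO80 in HepG2 and 17.4% of those of all annotated genes. These motifs differ in base composition as the windows do, and that part in the shares was not tested.

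Occupancy was lower far from coding genes. INO80 in HepG2 was at 12.1% of isolated genes 5 to 10 kb from the nearest coding start, at 13.8% from 10 to 20 kb, 11.4% from 20 to 50 kb, 9.05% from 50 to 100 kb, 7.08% from 100 to 200 kb and 2.61% from 200 to 500 kb (1.96 to 3.48). YY1 in HepG2 went from 16.1% at 5 to 10 kb to 5.46% at 200 to 500 kb. For INO80 the slope was smaller in Huh7, where its share was also lower at the near end. It was at 7.96% of genes from 5 to 10 kb (6.63 to 9.53), 3.25% from 200 to 500 kb and 4.82% beyond 500 kb (3.61 to 6.41). RUVBL2 in Huh7 was at none of the 913 genes beyond 500 kb, which allows a share of up to 0.419% by the Wilson interval. Around the limit of the rule, INO80 in HepG2 was at 13.2% of the 342 lncRNA genes 4 to 5 kb from a coding start, which were left out, and at 13.3% of the 324 genes 5 to 6 kb away, which were included.

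**Figure D5:**
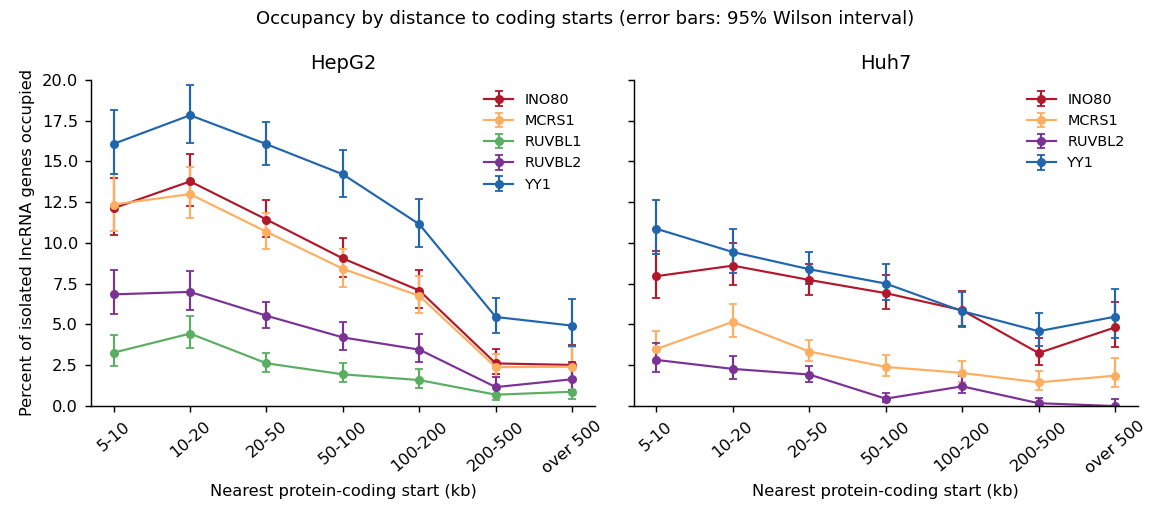
Percent of isolated lncRNA genes occupied (vertical axis) by distance to the nearest protein-coding start in kb (horizontal axis, bins of unequal size), for each factor in HepG2 (left) and Huh7 (right), with 95% Wilson intervals. INO80 in HepG2 goes from 12.1% at 5 to 10 kb to 2.52% beyond 500 kb, and INO80 in Huh7 from 7.96% to 4.82%.

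Genes next to tRNA genes were frequent among those in all 9 lists whose neighbours could be looked up. This was noticed in the data and is given as a description. Of the 3486 isolated genes with a symbol, 3084 were found in the RefSeq gene order and 27 of those have a tRNA gene as an immediate neighbour. Only 28 of the 66 genes in all 9 lists were found in that order, so the rest were not assessed. Of the 27, 11 (40.7%, 24.5 to 59.3) were in all 9 lists, compared with 17 of the other 3057 (0.556%). They are HCG11, HCG14, LINC00324, LINC01556, LINC01623, LINC01962, LINC02136, LINC02435, LINC02453, LINC02739 and TRIM7-AS2. LINC01962 and TRIM7-AS2 share an INO80 peak in HepG2 and are not independent. The B box was within 1 kb of the outermost start of 6 of the 11. It was there in 14 of the 66 genes in all 9 lists (21.2%, 13.1 to 32.5), which include those 6. The share was 7.21% of genes in 1 to 8 lists (6.18 to 8.40) and 5.06% of genes in none (4.66 to 5.49). Of the 66 genes, 47 have a CpG-rich window. Genes in 1 to 8 lists with such a window had the box at 9.62% (7.62 to 12.1). Over all isolated genes the share with the box was 5.50%. The LINC02739 window above shows the box upstream of the start. Peaks that belong to a tRNA gene and to the lncRNA start beside it cannot be told apart at 1 kb.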

How the data were processed

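Reads were handled with Bowtie2, SAMtools, deepTools, MACS2 and bedtools on the builds hg19 and dm3, per the submitters' processing notes, which give no versions. The authors deposited 1 filtered peak list per factor and line, with peak positions and no heights or scores. The use of single or pooled libraries for peak calling is not given in the sources used. No deposited column was left without a sample or group (0 unmatched).

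Peak starts, which count from 0, were moved to 1-based positions. Transcripts of GENCODE release 44 on GRCh37 gave the starts. A peak had to lie within 1 kb of a start. Coding starts were those of protein-coding transcripts of protein-coding genes. Shares have 95% Wilson intervals (scipy 1.17.1), and no test was made because no list has a replicate. The distance code was tested on simulated peaks. Near copies are 2001-bp windows about the outermost start that minimap2 (2.31-r1302, asm20) aligned elsewhere over at least 50% of their length at 95% identity or more. tRNA neighbours came from the gene order in RefSeq (GRCh38.p14), used for names and order alone. Near copies, tRNA neighbours and the B box were added after the data were seen.

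Named genes, all with a symbol, were up to 10 in all 9 lists by the summed width of their INO80 peaks, the 3 with the widest peak per list, the 5 widest with INO80 in both lines and YY1 in neither, the 5 widest of the reverse set, the 5 widest with INO80 in 1 line for each line, and the genes of 5 lists. The isolated genes and the lists were chosen with earlier results of these data known. Not every gene that the rule takes is printed.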

Additional observations from a re-analysis of the deposited data

How the results depend on the processing

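The 13 shares (each factor and line, INO80 genes with YY1, and INO80 genes shared between lines) were recomputed under 9 alternatives, which gave 117 values. Of these, 65 stayed within the interval of the reported share and 52 did not. Requiring 10 kb from every coding start, taking coding starts from every transcript type, or setting every peak to 200 bp moved 0 of 13. Values below are in percent, ordered as INO80, MCRS1, RUVBL1, RUVBL2 and YY1 in HepG2, then INO80, MCRS1, RUVBL2 and YY1 in Huh7, unless named.

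Without any other gene start within 5 kb, the shares were 5.02, 4.98, 1.28, 2.13, 9.16, 4.06, 1.62, 0.56 and 4.17, INO80 genes had YY1 at 81.1 in HepG2 and 70.0 in Huh7, and 45.4 of the HepG2 and 56.2 of the Huh7 INO80 genes were shared. With the wider 50% of each list, the shares were 5.25, 4.97, 1.41, 2.67, 8.39, 3.79, 1.75, 0.746 and 4.53, YY1 was at 79.9 and 66.5 of INO80 genes, and 45.9 and 63.7 were shared. These 2 settings moved all 13. At the outermost start alone, 7 shares moved, to 8.11, 7.73, 4.01 (RUVBL2) and 11.6 (YY1) in HepG2 and 5.96, 2.58 and 6.73 (YY1) in Huh7. With peaks within 500 bp, 7 moved, to 8.08, 7.77, 1.98, 3.99 and 11.4 in HepG2 and 6.19 (INO80) and 6.93 (YY1) in Huh7. Without chromosomes 2, 14, 16, 17 and 20, of which HepG2 carries extra copies, 5 moved, to 8.50, 7.87, 1.94 and 3.83 in HepG2, and to 57.2 of HepG2 INO80 genes shared. Without genes with a near copy, an alternative chosen after seeing the data, 7 moved, to 7.92, 7.61, 3.76 (RUVBL2) and 12.0 (YY1) in HepG2, 6.15 (INO80) and 6.58 (YY1) in Huh7, and 68.2 of Huh7 INO80 genes shared. Narrower windows, single starts and shorter lists admit fewer peaks by construction; the cause of the other shifts was not tested.

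No paired analysis was possible because each factor and line has 1 peak list and no values per library. No library was left out for the same reason. The lists give no depth, so depth and occupancy cannot be told apart in any difference between lines, factors or the HepG2 YY1 list from public reads, nor absence from low depth at a gene with no peak.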
